A study of Mus musculus with 141 samples.

Results

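The cytochromes P450 of the Cyp2a and Cyp2b families were described in liver, lung and kidney of Collaborative Cross (CC) mice. The 8 genes, *Cyp2a4*, *Cyp2a5*, *Cyp2a12*, *Cyp2a22*, *Cyp2b9*, *Cyp2b10*, *Cyp2b13* and *Cyp2b19*, were chosen by name, and all 8 were found among the 24423 genes of each file. Each of 47 CC strains contributed 1 male, whose liver, lung and kidney were sequenced, which gave 3 groups of 47 libraries. CC strains are recombinant inbred lines, each a mosaic of 8 founder genomes. All mice were adult males of 8 to 12 weeks, were fed wafers of the NTP 2000 diet, and breathed clear air in mesh chambers for 6 hours on weekdays over 2 weeks, so that no treatment separates the groups. Because each strain is represented by 1 mouse, a difference between strains cannot be told apart from a difference between individual mice, and in these bulk tissues, fewer cells of a type cannot be told apart from less RNA per cell. The total count per library ranged from 1738046 to 42158454 with a median of 9043226, and 3 counts were worth 0.288 CPM (counts relative to the total of a library) in the median liver. The labels of the tissues held up against marker genes: 8 hepatocyte markers summed to at least 31889 TPM (a level scaled to transcript length and to the total of the library) in every liver, 6 club cell markers to at least 16487 TPM in every lung and 6 proximal tubule markers to at least 30639 TPM in every kidney.

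CYP2A and CYP2B enzymes are membrane-bound heme monooxygenases that oxidize steroids, drugs and inhaled or dietary chemicals. CYP2A5 is the coumarin and nicotine hydroxylase of the mouse, CYP2A4 hydroxylates testosterone, and CYP2A12 is a steroid hydroxylase of the liver. *Cyp2b10* is the classic gene induced by phenobarbital through the nuclear receptor CAR, *Cyp2b9* is known for its higher expression in female than in male liver, and CYP2B19 is known from keratinocytes of the skin, where it acts on arachidonic acid.

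The 8 genes lie in a cluster on chromosome 7 that spans 1.14 Mb in build NCBIM37, the build behind the pseudo-genomes of the study, from the start of *Cyp2b10* (chr7:26682639-26711643, plus strand) to the end of *Cyp2a12* (chr7:27814109-27821826, plus strand). Between them lie, in this order, *Cyp2b13* (chr7:26846514-26881215), *Cyp2b9* (chr7:26958430-26995680), *Cyp2a4* (chr7:27092209-27100107), *Cyp2b19* (chr7:27542182-27557649), *Cyp2a5* (chr7:27620324-27628567) and *Cyp2a22* (chr7:27716650-27724405), of which *Cyp2a22* alone is on the minus strand. *Cyp2b23* and *Cyp2g1* lie among them, *Cyp2s1* flanks the cluster on the *Cyp2b10* side, and *Cyp2f2* and *Cyp2t4* flank it on the *Cyp2a12* side. *Cyp2a4* and *Cyp2a5* are therefore not neighbours, although they are the most alike: their coding sequences differed at 23 of 1485 bases (98.5% identity) in the reference transcripts of GENCODE vM1. *Cyp2a12* and *Cyp2a22* were 96.96% identical (45 of 1479 bases), and *Cyp2b9* and *Cyp2b13* 92.6% (110 of 1476 bases). Other pairs within the Cyp2a family lay between 75.3% and 76.7%, and other pairs within the Cyp2b family between 84.9% and 88.8%.

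This likeness limits how well reads of 50 bases can be assigned. The following stretches of coding sequence, numbered from the start codon, show *Cyp2a4* with *Cyp2a5* and *Cyp2b9* with *Cyp2b13*. Capitals mark the bases that differ between the members of a pair. Each stretch was chosen as the one of its length at which the pair differed most. *Cyp2a12* and *Cyp2a22*, which are more alike than *Cyp2b9* and *Cyp2b13*, are not shown. In bases 570 to 669, *Cyp2a4* and *Cyp2a5* differed at 5 positions, and in bases 1026 to 1125 *Cyp2b9* and *Cyp2b13* differed at 17.
*Cyp2a4* coding: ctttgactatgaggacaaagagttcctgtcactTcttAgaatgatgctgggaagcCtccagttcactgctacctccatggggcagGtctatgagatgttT
*Cyp2a5* coding: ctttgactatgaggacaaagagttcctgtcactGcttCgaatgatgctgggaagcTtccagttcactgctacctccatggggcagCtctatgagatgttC
*Cyp2b9* coding: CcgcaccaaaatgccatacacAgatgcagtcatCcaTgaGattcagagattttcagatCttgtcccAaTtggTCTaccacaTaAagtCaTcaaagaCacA
*Cyp2b13* coding: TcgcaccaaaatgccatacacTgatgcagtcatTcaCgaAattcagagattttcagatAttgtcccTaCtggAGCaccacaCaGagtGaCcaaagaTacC
The longest run without a difference was 216 bases between *Cyp2a4* and *Cyp2a5* and 113 bases between *Cyp2b9* and *Cyp2b13*. Of all windows of 50 bases in the reference transcript, 61.8% of *Cyp2a4* and 49.03% of *Cyp2a5* were unique. A unique window occurred neither elsewhere in the NCBIM37 genome nor in a protein-coding transcript of another gene. Of the *Cyp2a4* windows, 36.5% also occurred in *Cyp2a5*. The share of unique windows was 72.1% for *Cyp2a12*, 76.6% for *Cyp2a22*, 73.7% for *Cyp2b13*, 88.9% for *Cyp2b9*, 92.1% for *Cyp2b10* and 97.5% for *Cyp2b19*. The authors counted uniquely aligned reads on a genome made for each strain, so a member's value rests on its unique part. Of the *Cyp2a12* windows, 27.9% also occurred in *Cyp2a22*. The levels within the pairs *Cyp2a4* and *Cyp2a5*, *Cyp2a12* and *Cyp2a22*, and *Cyp2b9* and *Cyp2b13* are uncertain. Reads of shared windows may have been left out or misplaced, and the extent of this was not tested.

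*Cyp2a4* and *Cyp2a5*, and *Cyp2b9* and *Cyp2b13*, are also nearly identical upstream of their start sites. The 250 bases before the RefSeq start site (GRCm38.p6, plus strand) are shown for these 4 genes, with capitals at bases that differ from, or are missing in, the other member of the pair. They lie at chr7:26306942-26307191 for *Cyp2a4*, chr7:26835089-26835338 for *Cyp2a5*, chr7:26173159-26173408 for *Cyp2b9* and chr7:26061245-26061494 for *Cyp2b13*.
*Cyp2a4* promoter: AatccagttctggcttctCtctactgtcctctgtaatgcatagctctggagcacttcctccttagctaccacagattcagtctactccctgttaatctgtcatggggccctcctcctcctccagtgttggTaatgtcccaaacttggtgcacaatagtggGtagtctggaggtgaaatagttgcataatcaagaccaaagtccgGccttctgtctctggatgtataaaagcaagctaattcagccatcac
*Cyp2a5* promoter: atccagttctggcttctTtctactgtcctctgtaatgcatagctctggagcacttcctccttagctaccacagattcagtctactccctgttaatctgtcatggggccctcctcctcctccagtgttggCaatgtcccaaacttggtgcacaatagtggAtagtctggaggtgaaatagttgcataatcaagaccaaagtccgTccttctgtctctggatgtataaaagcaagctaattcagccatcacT
*Cyp2b9* promoter: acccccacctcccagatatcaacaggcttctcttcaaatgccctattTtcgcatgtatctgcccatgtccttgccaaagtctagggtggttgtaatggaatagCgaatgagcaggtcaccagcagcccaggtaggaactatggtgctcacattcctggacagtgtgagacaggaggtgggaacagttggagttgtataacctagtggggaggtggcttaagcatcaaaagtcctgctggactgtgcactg
*Cyp2b13* promoter: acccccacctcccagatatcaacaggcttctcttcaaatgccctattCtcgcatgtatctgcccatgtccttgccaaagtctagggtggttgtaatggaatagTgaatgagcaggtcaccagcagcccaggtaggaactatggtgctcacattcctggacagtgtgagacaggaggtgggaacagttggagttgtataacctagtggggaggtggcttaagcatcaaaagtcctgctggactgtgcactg
The *Cyp2a4* and *Cyp2a5* stretches differed at 4 bases and a shift by 1 base at each end, and those of *Cyp2b9* and *Cyp2b13* at 2 bases. Motifs were searched on both strands of the 250 bases before the start, in the members and in all promoters. TATAAA was found in all 4 Cyp2a members, at -28 in *Cyp2a4* and *Cyp2a22*, at -29 in *Cyp2a5* and at -39 in *Cyp2a12*, and in none of the 4 Cyp2b members. It was present in 13% of the 27025 promoters of the table. AGGTCA, the hexamer bound by many nuclear receptors, was found at -138 in *Cyp2b9* and *Cyp2b13* and at -121 in *Cyp2b19*, and in 13.8% of all promoters. GTTAAT, a core of the HNF1 site, was found at -160 in *Cyp2a4* and -161 in *Cyp2a5*, and in 6.52% of all promoters. CAAAGTCCA (the HNF4 core, in 0.381% of all promoters), TTATGTAA (the D-box, 0.862%), TTCNNNGAA (the STAT5 site, 7.18%), TTGCGCAA (the C/EBP core, 0.170%) and CACGTG (the E-box, 6.05%) matched no member. The matches found did not overlap each other, and they describe letters in this window only.

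Each tissue had a different leading member, as the plot of the levels of the 8 genes by tissue shows. Levels are given in TPM, which corrects for transcript length but not for the share of sequence that a gene has to itself, so the order of close relatives is uncertain to that extent. In liver, *Cyp2a12* was highest of the 8 genes in 37 of 47 libraries and *Cyp2a5* in the other 10. In lung, *Cyp2b10* was highest in 45 libraries and *Cyp2a5* in 2. In kidney, *Cyp2a4* was highest in 45 libraries and *Cyp2a5* in 2. The summed level of the 4 Cyp2a genes had a median of 903 TPM in liver, 120 TPM in lung and 626 TPM in kidney, and that of the 4 Cyp2b genes a median of 8.16 TPM in liver, 485 TPM in lung and 3.20 TPM in kidney.

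**Figure D1:**
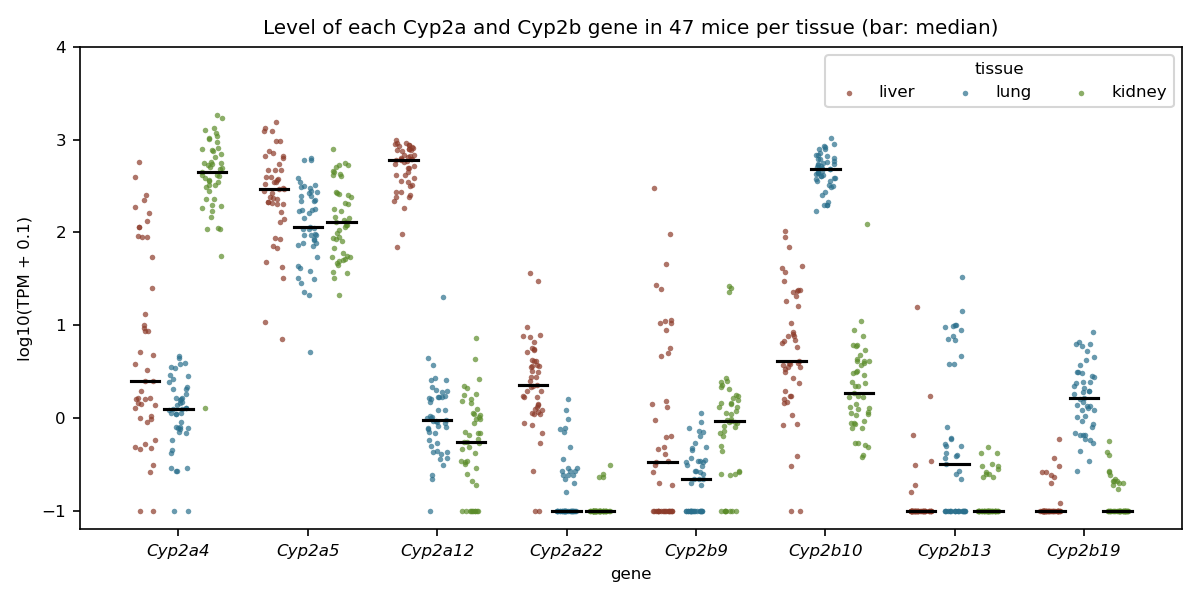
Level of the 8 genes, as log10(TPM + 0.1), in the 47 livers, lungs and kidneys; each point is a library and each bar the median of a tissue. *Cyp2a12* is separated by about 3 units between liver and the other tissues, *Cyp2b10* in lung lies above every liver and kidney, and the median of *Cyp2a5* lies above 2 in all 3 tissues.

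The order of the members within a tissue was tested between neighbours in median TPM, with a paired permutation test of log2(TPM + 0.1) over mice (100000 sign flips, two-sided, 21 neighbour pairs, Benjamini-Hochberg adjusted). In liver the medians ran from *Cyp2a12* (599 TPM) and *Cyp2a5* (297 TPM) to *Cyp2b10* (3.96 TPM), *Cyp2a4* (2.40 TPM), *Cyp2a22* (2.16 TPM) and *Cyp2b9* (0.230 TPM), with *Cyp2b13* and *Cyp2b19* at 0. *Cyp2a12* exceeded *Cyp2a5* in 37 of 47 livers (adjusted permutation p = 0.000397). *Cyp2b10* and *Cyp2a4* did not differ beyond their spread (adjusted p = 0.881), nor did *Cyp2b13* and *Cyp2b19* (adjusted p = 0.533). In lung the order was *Cyp2b10* (484 TPM), *Cyp2a5* (115 TPM), *Cyp2b19* (1.52 TPM), *Cyp2a4* (1.14 TPM), *Cyp2a12* (0.840 TPM), *Cyp2b13* (0.220 TPM), *Cyp2b9* (0.120 TPM) and *Cyp2a22* (0), and the neighbours that did not differ beyond their spread were *Cyp2a4* and *Cyp2a12* (adjusted p = 0.482) and *Cyp2b9* and *Cyp2a22* (adjusted p = 0.226). In kidney the order was *Cyp2a4* (448 TPM), *Cyp2a5* (129 TPM), *Cyp2b10* (1.75 TPM), *Cyp2b9* (0.830 TPM), *Cyp2a12* (0.450 TPM) and the remaining members at a median of 0. There, *Cyp2b9* and *Cyp2a12* (adjusted p = 0.141) and *Cyp2b13* and *Cyp2b19* (adjusted p = 0.941) did not differ beyond their spread. The order among the lowest members is not resolved, also where neighbours passed the test. At most 3 counts were present in 34 lungs for *Cyp2b13* and 44 for *Cyp2b9*. In kidney this held in all 47 libraries for *Cyp2a22* and *Cyp2b13*, which passed the test (adjusted p = 0.0322).

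Differences between tissues were estimated by limma-voom, in which the strain was a block, for 12127 genes that exceeded 1 CPM in 30% or more of all libraries, and a gene was called at a Benjamini-Hochberg q of at most 0.1 and a change of at least 2-fold. Of the 8 genes, 4 passed the filter: *Cyp2a4*, *Cyp2a5*, *Cyp2a12* and *Cyp2b10*. All 4 were called between liver and lung, against 55% of all genes tested, and all 4 between liver and kidney, against 36.4%. Between lung and kidney 2 of the 4 were called, against 46.1% of all genes. *Cyp2a12* exceeded 1 CPM in every liver but in 21.3% of lungs and 10.6% of kidneys, so it passed the filter through the tissue where it is high and its liver calls are a description. *Cyp2a4* exceeded it in 61.7% of livers, 29.8% of lungs and 97.9% of kidneys, and *Cyp2b10* and *Cyp2a5* in more than 50% of the libraries of each tissue. The other members exceeded 1 CPM in 24.8% (*Cyp2a22*), 21.3% (*Cyp2b19*), 18.4% (*Cyp2b9*) and 9.93% (*Cyp2b13*) of libraries.

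*Cyp2a12*, the steroid hydroxylase, was the liver member of the cluster. Its level in liver ranged from 69.8 TPM (CC012) over a median of 599 TPM to 1000 TPM (CC044), in lung from 0 over 0.840 TPM to 19.97 TPM (CC010), and in kidney from 0 over 0.450 TPM to 7.22 TPM (CC027). The lowest liver lay above the highest lung and the highest kidney. On the log2 scale of TMM-scaled counts it was higher in liver than in lung by 10.46 ± 0.13 (SE, q = 1.33e-88, limma-voom) and higher in liver than in kidney by 10.81 ± 0.15 (q = 5.51e-85), in 47 of 47 mice in each case. Lung and kidney differed by 0.35 ± 0.13 (q = 0.0102), under the 2-fold threshold.

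The hepatocyte gene *Alb* moved with the low values of *Cyp2a12* outside liver. *Alb*, which encodes serum albumin, had a median of 89.7 TPM in lung and 53.8 TPM in kidney. Across the 47 lungs *Cyp2a12* and *Alb* correlated with r = 0.82 (permutation p = 1e-05) and rho = 0.84 (p = 1e-05), and r was 0.77 without the 2 lungs farthest from the median of *Cyp2a12*. Across kidneys r was 0.76 (p = 1e-05), rho was 0.74 (p = 1e-05) and r without the 2 farthest kidneys was 0.72. For these and 14 other pairs of a member and a marker gene, 1e-05 is the smallest p that 100000 permutations can give, and it corresponds to 5.33e-05 after adjustment over the 16 pairs. The ratio of *Cyp2a12* to *Alb* within a library had a median of 1.07% in liver, 1.14% in lung and 0.769% in kidney. At most 3 counts of *Cyp2a12*, taken here as not resolved, were present in 19 of 47 lungs and 29 of 47 kidneys. The correlations and ratios in these 2 tissues rest in part on such values. The lung of CC010 had both the highest *Alb* (1170 TPM) and the highest *Cyp2a12* of all lungs. The 8 hepatocyte markers together summed to between 4.87 and 1890 TPM in lung, between 6.12 and 1564 TPM in kidney and between 31889 and 135744 TPM in liver, with 2 of the 8 at a median of 0 in lung and 2 in kidney. The contribution of liver RNA to the *Cyp2a12* values of lung and kidney was not tested further.

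**Figure D2:**
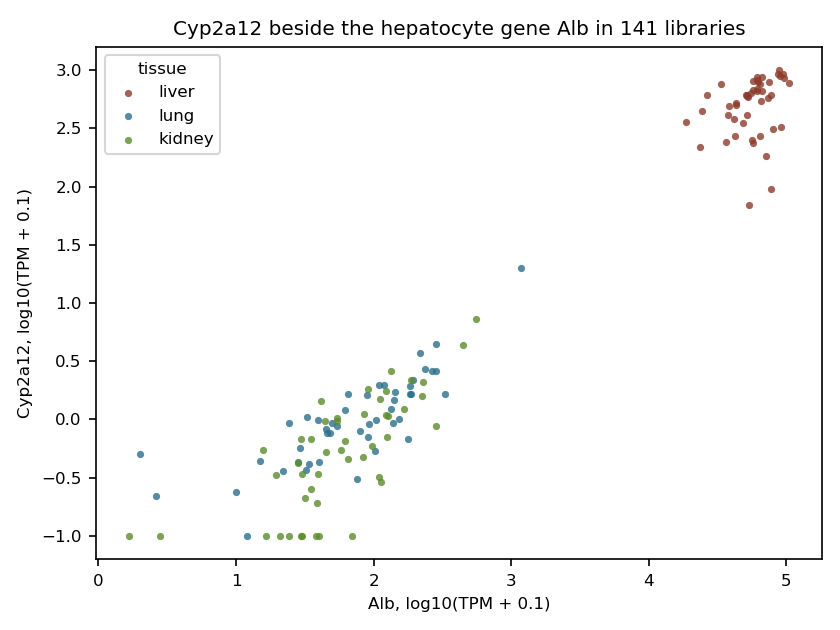
*Cyp2a12* against the hepatocyte gene *Alb*, both as log10(TPM + 0.1), in all libraries coloured by tissue. The livers form a separate group at the upper right, and within lung and kidney the points rise together (r = 0.82 and r = 0.76 on rank inverse normal values).

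*Cyp2a22*, the close relative of *Cyp2a12*, was also found mostly in liver but at a far lower level. It ranged in liver from 0 in 2 libraries over a median of 2.16 TPM to 36.1 TPM (CC044), with 29.95 TPM in CC030 and 9.51 TPM or less in the rest. In lung 43 of 47 libraries and in kidney all 47 held at most 3 counts, the level below which a value was treated as not resolved. Liver exceeded lung in 45 mice, and both were at 0 in 2. When genes with low counts were kept in the fit, it was higher in liver by 5.47 ± 0.22 on the log2 scale than in lung (limma-voom q = 5.65e-43) and by 5.66 ± 0.22 than in kidney (q = 4.93e-44), which are fitted values and not bounds because most lungs and kidneys were at 0.

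*Cyp2a5*, the coumarin hydroxylase, was the member found at a high level in all 3 tissues. Its level ran from 6.99 TPM (CC055) over 297 TPM to 1565 TPM (CC030) in liver, from 4.98 TPM (CC032) over 115 TPM to 640 TPM (CC049) in lung, and from 21.1 TPM (CC013) over 129 TPM to 800 TPM (CC038) in kidney. The 3 ranges overlapped. The fitted difference was 2.58 ± 0.30 between liver and lung (q = 1.89e-13, higher in 40 of 47 livers) and 1.84 ± 0.30 between liver and kidney (q = 2.78e-08, higher in 37 of 47 livers). Lung was lower than kidney by 0.74 ± 0.30 on the log2 scale (q = 0.0174), under the 2-fold threshold. With libraries scaled by their total counts, the liver differences were 1.20 and 0.95, and that against kidney was no longer called. The difference between lung and kidney was then -0.25 (limma-voom q = 0.42), and it was -0.15 on log2(TPM + 1) (limma q = 0.628). *Alb* did not track *Cyp2a5* in lung (r = -0.0024, permutation p = 0.987, rho = -0.039, p = 0.791) or kidney (r = -0.024, p = 0.871, rho = -0.046, p = 0.757).

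*Cyp2a4*, the testosterone hydroxylase, was the kidney member of the cluster, with the widest spread in liver. In kidney it ranged from 1.18 TPM over a median of 448 TPM to 1846 TPM (CC038), and in lung from 0 over 1.14 TPM to 4.56 TPM. In liver it ranged from 0 over 2.40 TPM to 573 TPM (CC027), with 15 livers above 10 TPM and 13 above 50 TPM. The ranges of lung and kidney overlapped only through the kidney at 1.18 TPM. At most 3 counts of *Cyp2a4* were present in 14 of 47 lungs, and the lung with the highest level (CC001) held 17 counts. Differences, correlations and ratios that involve its lung values therefore rest on values near the floor. The gene was higher in kidney than in lung in 47 of 47 mice, with a fitted difference between lung and kidney of -9.47 ± 0.40 (q = 1.25e-41). It was higher in kidney than in liver in 44 of 47 mice (-4.03 ± 0.34, q = 2.11e-20) and liver exceeded lung in 39 of 47 (5.44 ± 0.39, q = 8.32e-25). The fitted difference between liver and lung is larger than the 2.11-fold ratio of the median TPM values, and it was 3.68 ± 0.88 without the block and 2.31 on log2(TPM + 0.1), which gives each library the same weight. It was called in each of these fits. With libraries scaled by total counts it was 2.91, and the difference between liver and kidney was -5.79. In lung, *Kap*, the androgen-regulated protein of the kidney, had a median of 82.3 TPM and varied with *Cyp2a4* (r = 0.66, permutation p = 1e-05, rho = 0.60, p = 2e-05, r = 0.59 without the 2 farthest lungs), and the ratio of *Cyp2a4* to *Kap* within a library had a median of 1.28% in lung and 0.678% in kidney. In liver the same correlation was 0.27 (p = 0.065, rho = 0.29, p = 0.0514).

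The kidney of CC030 held 8 counts of *Cyp2a4*, or 1.18 TPM, where the next lowest kidney held 55.5 TPM (CC025). Its *Cyp2a5* level was 50.9 TPM, and 27 kidneys had less of the proximal tubule marker *Kap* (92452 TPM, against a median of 87761 TPM over all kidneys). Of the other proximal tubule markers, *Slc5a2* was above its median (352 against 315 TPM), and *Slc34a1* (2941 against 3303 TPM), *Lrp2* (1332 against 1378 TPM), *Slc22a6* (607 against 727 TPM) and *Miox* (972 against 1764 TPM, with 5 kidneys lower) were below theirs. The liver of the same mouse held 188 TPM of *Cyp2a4*, the fifth highest of 47.

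**Figure D3:**
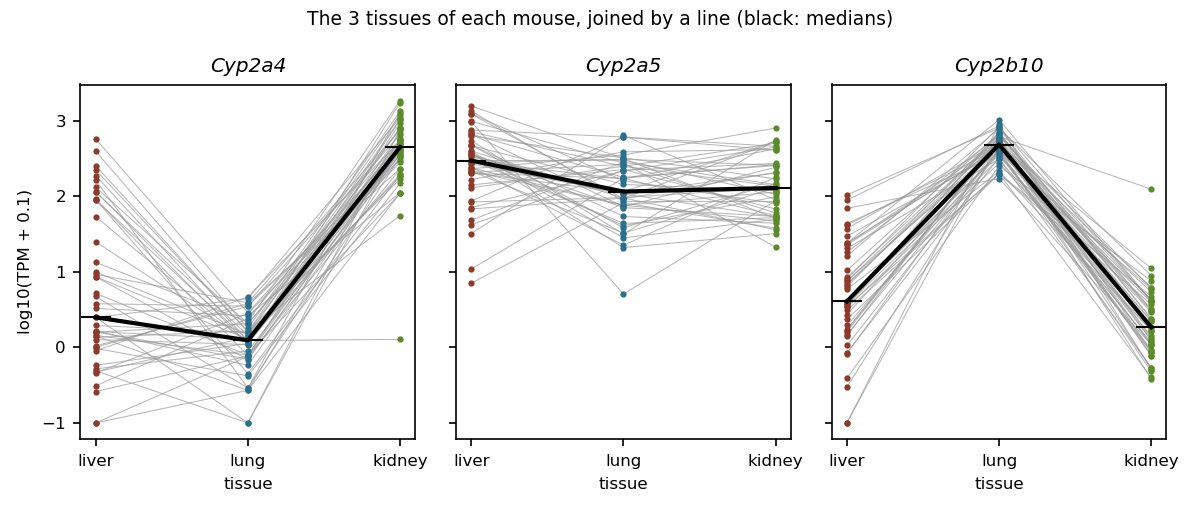
Levels of *Cyp2a4*, *Cyp2a5* and *Cyp2b10*, as log10(TPM + 0.1), in the 3 tissues of each mouse, joined by a grey line; the black line joins the medians. At the median *Cyp2a4* is lowest in lung and highest in kidney, where 1 mouse lies far below the rest, the lines of *Cyp2a5* cross, and *Cyp2b10* peaks in lung in all 47 mice.

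*Cyp2b10*, the CAR target, was the lung member of the cluster. It ranged in lung from 172 TPM (CC015) over 484 TPM to 1031 TPM (CC021), in liver from 0 over 3.96 TPM to 104 TPM (CC037), and in kidney from 0.280 TPM over 1.75 TPM to 124 TPM (CC007). The lowest lung lay above the highest liver and the highest kidney. The fitted difference was -4.30 ± 0.22 between liver and lung (q = 1.53e-35) and 7.10 ± 0.24 between lung and kidney (q = 2.05e-50), each with lung higher in 47 of 47 mice. The difference between liver and lung was -6.17 with libraries scaled by total counts and -6.48 on log2(TPM + 0.1). Liver exceeded kidney by 2.80 ± 0.23 (q = 1.56e-20), with liver higher in 38 of 47 mice, and by 1.53 with libraries scaled by total counts and 1.13 on log2(TPM + 1). The kidney of CC007 stood apart, since the next highest kidney was at 11.03 TPM (CC068), and the lung of CC007 was at 617 TPM, within the range of the others. *Scgb1a1*, the secretory protein of club cells in the airways, had a median of 61079 TPM in lung, 41.1 TPM in liver and 37.8 TPM in kidney. It did not vary with *Cyp2b10* in kidney at the threshold (r = 0.20, permutation p = 0.169, rho = 0.23, p = 0.127), and in liver it varied inversely (r = -0.41, p = 0.00418, rho = -0.38, p = 0.00976, adjusted p = 0.0167), with r = -0.29 without the 2 farthest livers. Across lungs the correlation was 0.25 (p = 0.091, rho = 0.22, p = 0.135).

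The 3 remaining Cyp2b members were low in most libraries. *Cyp2b9*, known as a female-biased gene, was at 0 counts in 19 of 47 livers and at 3 counts or fewer in 29, but it reached 303 TPM in CC024, 95.6 TPM in CC044 and 46.1 TPM in CC016. In kidney its median was 0.830 TPM, and 3 kidneys stood apart at 26.0 TPM (CC007), 25.1 TPM (CC045) and 22.8 TPM (CC038). The same 3 kidneys were also the highest in *Cyp2a4*, an overlap chosen for mention after its values were seen. Across kidneys the 2 genes correlated with r = 0.49 (permutation p = 0.00069) and rho = 0.40 (p = 0.00639), with r = 0.37 without the 2 kidneys farthest from the median of *Cyp2a4* and an adjusted p of 0.00621 over the pairs of members tested.

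*Cyp2b13* was resolved mostly in lung, where it ranged from 0 in 20 libraries over a median of 0.220 TPM to 32.9 TPM (CC033), and 13 lungs were above 1 TPM. In liver it was at 0 counts in 40 libraries, and its 3 highest livers, CC024 (15.6 TPM), CC016 (1.63 TPM) and CC044 (0.560 TPM), were the 3 highest in *Cyp2b9*. These 2 genes share 10.6% of their 50-base windows, and whether reads of *Cyp2b9* contributed to these values was not tested. *Cyp2b19*, the keratinocyte member, was higher in lung than in liver and than in kidney in 47 of 47 mice, but its lung values were low, from 0.170 TPM over 1.52 TPM to 8.33 TPM (CC062). At most 3 counts of it were present in 46 livers and 47 kidneys. The keratinocyte marker *Krt5* had a median of 3.46 TPM in lung and reached 139 TPM, and it did not vary with *Cyp2b19* at the threshold (r = 0.026, permutation p = 0.865, rho = 0.054, p = 0.719). With low-count genes kept, limma-voom gave a lung excess over kidney of 3.46 ± 0.23 for *Cyp2b19* (q = 3.17e-26) and of 1.80 ± 0.39 for *Cyp2b13* (q = 1.83e-05), and a kidney excess over lung of *Cyp2b9* (lung against kidney -2.43 ± 0.49, q = 7.29e-06), as fitted values with many libraries at 0.

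Within a tissue, the members that passed its filter varied more between mice than most genes did. In liver the SD of log2(CPM + 1) was 2.83 for *Cyp2a4*, 1.76 for *Cyp2b10*, 1.71 for *Cyp2a5*, 1.18 for *Cyp2a22* and 0.85 for *Cyp2a12*, against a median of 0.37 over the 9499 genes that passed the filter in liver. These values lay above 99.9%, 99.1%, 99.0%, 97.2% and 93.7% of tested genes. In lung *Cyp2a5* (SD 1.24) lay above 99.1% of genes, *Cyp2b19* (SD 0.66) above 93.8% and *Cyp2b10* (SD 0.41) above 76.0%. In kidney *Cyp2a4* (SD 1.496) lay above 99.5% of genes, *Cyp2a5* (SD 1.29) above 99.1% and *Cyp2b10* (SD 1.01) above 98.2%. The ratio of the upper to the lower quartile of TPM was 77.5 for *Cyp2a4* in liver and 1.69 for *Cyp2b10* in lung, the extremes among the members that passed the filter. The plot of ranked liver levels shows the different shapes of these distributions.

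**Figure D4:**
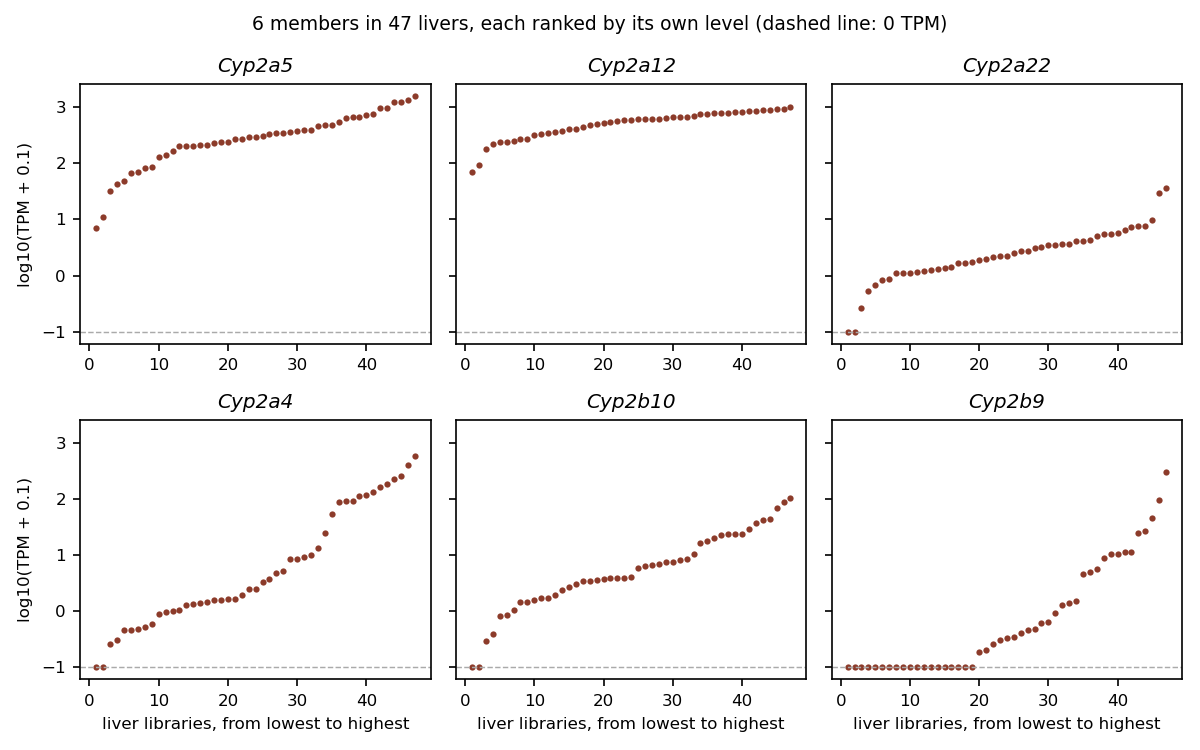
Levels of 6 members in the 47 livers, as log10(TPM + 0.1), each ranked from its lowest to its highest library; the dashed line marks 0 TPM. *Cyp2a12* rises gradually, *Cyp2a4* climbs from 0 in 2 livers to 13 livers above 50 TPM, and *Cyp2b9* is at 0 in 19 livers.

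The level of a member in 1 tissue was then set against its level in another tissue of the same mouse, and no correlation passed the adjusted threshold. Correlations used rank inverse normal values of TMM-normalized TPM for members above 1 TPM in more than 50% of the libraries of both tissues, with 100000 permutations of mice and adjustment over all genes that passed. *Cyp2b10* had r = 0.33 between liver and lung (permutation p = 0.026, rho = 0.30, p = 0.0391, adjusted p = 0.147), and r was 0.22 without the 2 livers farthest from the median. *Cyp2a5* had r = -0.14 between liver and lung (p = 0.333, rho = -0.15, p = 0.318), r = -0.093 between liver and kidney (p = 0.53, rho = -0.079, p = 0.594) and r = 0.16 between lung and kidney (p = 0.293, rho = 0.21, p = 0.154). *Cyp2a4* had r = 0.12 between liver and kidney (p = 0.429, rho = 0.13, p = 0.389). *Cyp2b10* had r = -0.031 between liver and kidney (p = 0.834, rho = -0.018, p = 0.907) and r = 0.056 between lung and kidney (p = 0.708, rho = 0.060, p = 0.685). None of the 7 correlations passed an adjusted p of 0.1 (their range was 0.147 to 0.91), a limit that 1138 of 8517 genes passed between liver and lung, 1994 of 8483 between liver and kidney and 1763 of 10057 between lung and kidney. The median r over all genes was 0.14, 0.18 and 0.15 for these pairs of tissues.

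Members were then set against each other and against all other genes within liver. For each member that passed the liver filter, a slope of log2 CPM on the rank inverse normal level of the member was fitted across the 47 livers with limma-voom, over all 9498 other genes, and a gene was called at q of at most 0.1. A slope is the change in log2 CPM per SD of the member's rank. *Cyp2a5* and *Cyp2a22* rose together: the slope of *Cyp2a22* on *Cyp2a5* was 1.02 ± 0.15 (SE, q = 7.16e-05), and that of *Cyp2a5* on *Cyp2a22* was 1.10 ± 0.22 (q = 0.0478). Their rank inverse normal levels correlated with r = 0.56 (permutation p = 3e-05) and rho = 0.59 (p = 2e-05), with r = 0.50 without the 2 livers farthest from the median of *Cyp2a5* and an adjusted p of 0.000675. The pair is 76.1% identical in coding sequence, and the 2 genes are neighbours on opposite strands. Without CC010, CC036 and CC039, the slope of *Cyp2a5* on *Cyp2a22* was no longer called (q = 0.109), while that of *Cyp2a22* on *Cyp2a5* was. No other pair of members was called in liver, although *Cyp2a5* and *Cyp2a12* had r = 0.38 (permutation p = 0.00833, rho = 0.44, p = 0.00223, r = 0.37 without the 2 farthest livers, adjusted p = 0.045 over 27 pairs of members) and *Cyp2a22* and *Cyp2b9* had r = 0.39 (permutation p = 0.00765, rho = 0.36, p = 0.0146, r = 0.37 without the 2 farthest livers, adjusted p = 0.045). The nearly identical pair *Cyp2a12* and *Cyp2a22* had r = 0.30 (p = 0.0427, rho = 0.34, p = 0.0199, adjusted p = 0.128), and *Cyp2a4* and *Cyp2a5* had r = 0.080 (p = 0.59, rho = 0.015, p = 0.922, adjusted p = 0.817).

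The genes outside the family that tracked the liver members were few. With *Cyp2a5* 27 genes were called (0.284%), 18 positive and 9 negative. The 3 genes whose ranks were most like its own were *Wee1*, a cell cycle kinase under circadian control (slope 0.80 ± 0.11, limma-voom q = 1.8e-05, rho = 0.71), *Cyp2g1*, a P450 known from the olfactory mucosa (slope 0.97 ± 0.18, q = 0.00619, rho = 0.64), and *Ciart*, a circadian repressor (slope 0.72 ± 0.16, q = 0.0284, rho = 0.64). On log2(TPM + 1), *Ciart* was not called (q = 0.115). *Cyp2g1* lies between *Cyp2b19* and *Cyp2a5* in the cluster, ranged from 0 over 1.03 TPM to 9.76 TPM in liver, and also rose with *Cyp2a12* (slope 1.0 ± 0.20, q = 0.0216) and *Cyp2a22* (slope 1.07 ± 0.20, q = 0.0215). Its slope on *Cyp2a22* was not called with log2 CPM as the covariate (q = 0.115) or without CC010, CC036 and CC039 (q = 0.109). It was 1 of the 2 cluster neighbours tested of 5 listed, and the other, *Cyp2f2*, the naphthalene-oxidizing P450 of club cells, was not called with any of these members.

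With *Cyp2a12* 10 genes were called (0.105%), among them *Cadm4*, a cell adhesion molecule 1.39 Mb away from the cluster on chromosome 7 (slope 1.20 ± 0.19, q = 0.000682, rho = 0.59). *Saa4*, the third gene by likeness, was not called (q = 0.244). With *Cyp2a22* 4 genes were called (0.0421%), and besides *Cyp2g1* and *Cyp2a5* they included *Hyou1*, a chaperone of the endoplasmic reticulum (slope -0.26 ± 0.05, q = 0.0535, rho = -0.54), while *Polr2f* was not called (q = 0.24). The call of *Hyou1* was lost in 4 of 8 alternatives, with q between 0.192 and 1.0. With *Cyp2a4*, whose liver levels spread most, 1 gene was called (0.0105%), *2410002F23Rik* (slope 0.21 ± 0.04, q = 0.0811, rho = 0.57), and that call was lost in 4 of 8 alternatives, with q between 0.102 and 0.787. Its next genes by likeness, *Alg10b* (q = 0.227) and *Bche* (q = 0.273), were not called.

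With *Cyp2b10* 2 genes were called in liver (0.0211%), and both rose with it. *Cyp2c29*, another P450 induced through CAR, had a slope of 0.36 ± 0.06 (q = 0.00283), r = 0.68 (permutation p = 1e-05), rho = 0.67 (p = 2e-05) and r = 0.63 without the 2 farthest livers. The 41 named pairs were picked from all tested genes for likeness or a call in these same libraries. Their permutation p-values are therefore no separate test. *Cyp2c29* was the 1 gene called of the 22 tested CAR and PXR targets (25 listed), whose median slope was 0.11 against 0.0015 over all genes. None of the 12 tested regulators of 17 listed, among them *Hnf4a* and *Nfe2l2*, was called with *Cyp2b10* or any other member in liver.

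*Cyp2b9*, just under the filter in liver with 29.8% of livers above 1 CPM, was added after its values were seen. At most 3 counts of *Cyp2b9* were present in 29 of 47 livers, so most of its ranks rest on values that were not resolved. With *Cyp2b9* 25 genes were called (0.263%), 14 positive and 11 negative. Those most like it were *BC089597* (slope 1.15 ± 0.18, q = 0.000233, rho = 0.71), *Cox6b1*, a subunit of cytochrome c oxidase (slope -0.19 ± 0.04, q = 0.0149, rho = -0.62), and *Abcd2*, a peroxisomal fatty acid transporter (slope 1.34 ± 0.19, q = 3.61e-05, rho = 0.60). Of the 9 tested genes known as female-biased in liver (18 listed), 2 were called and both rose with *Cyp2b9*, among them *Abcd2*. Of the 16 genes known as male-biased, all tested, 3 were called and each fell: *Ugt2b1*, a glucuronosyltransferase (slope -0.43 ± 0.09, q = 0.015), *Cyp7b1*, an oxysterol hydroxylase (slope -0.67 ± 0.14, q = 0.0277), and *C6*, a complement component (slope -0.50 ± 0.12, q = 0.0681). The median slope was 0.58 over the female-biased list and -0.25 over the male-biased list, against 0.00073 over all genes. On log2(TPM + 1) the count fell to 2 genes, *BC089597* and *Abcd2*, so *Cox6b1* and the 3 male-biased genes were no longer called. All of these livers were from males. *Cyp2b9* and *Cyp7b1* correlated with r = -0.54 (permutation p = 0.00013), rho = -0.57 (p = 7e-05) and r = -0.54 without the 2 farthest livers. This pair was named because *Cyp7b1* was called in these livers, so its permutation p-values are no separate test.

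In lung, where members with a median of at least 10 TPM were fitted after the values were seen, the fits were for *Cyp2a5* and *Cyp2b10*. With *Cyp2a5* 61 of 12872 genes were called (0.474%), of which 57 were positive. The nearest in rank were the smooth muscle genes *Cnn1* (slope 0.51 ± 0.08, q = 0.000181, rho = 0.70) and *Myl9* (slope 0.29 ± 0.06, q = 0.0193, rho = 0.65) and *Bpifa1*, a secreted protein of the upper airways (slope 1.43 ± 0.30, q = 0.02, rho = 0.64). *Cyp2g1* rose with *Cyp2a5* here too (slope 0.56 ± 0.12, q = 0.02), as did *Cyp4a12b* (slope 0.87 ± 0.19, q = 0.02), 1 of 11 male-biased genes tested. None of the 6 club cell markers was called with *Cyp2a5*. The 2 leading lung members did not vary together (r = -0.016, permutation p = 0.913, rho = -0.055, p = 0.714, adjusted p = 0.987).

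With *Cyp2b10* 851 genes were called in lung (6.61%), 370 positive and 481 negative. The nearest in rank were *Pxdc1* (slope 0.36 ± 0.04, q = 1.5e-07, rho = 0.80), *Fmo2*, the flavin monooxygenase of the lung (slope 0.30 ± 0.04, q = 1.94e-05, rho = 0.74), and *Lmo7* (slope 0.20 ± 0.03, q = 8.2e-05, rho = 0.73). Of 15 tested CAR and PXR targets 2 were called, *Alas1*, the first enzyme of heme synthesis (slope 0.36 ± 0.08, q = 0.00883), and *Aldh1a1*, a retinal dehydrogenase (slope 0.24 ± 0.06, q = 0.0153). Of 8 tested regulators 2 were called, *Tef*, a circadian transcription factor (slope 0.36 ± 0.09, q = 0.0175), and *Nfe2l2*, the factor of the antioxidant response (slope 0.091 ± 0.028, q = 0.0569). Of 6 club cell markers 1 was called, *Cbr2*, a carbonyl reductase (slope 0.16 ± 0.05, q = 0.0779), and *Scgb1a1* was not. On log2(TPM + 1) the count fell to 43 genes and none of the genes named here was called, *Pxdc1* included (q = 0.195).

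In kidney, *Cyp2a4* and *Cyp2a5* rose together. Their ranks correlated with r = 0.59 (permutation p = 5e-05), rho = 0.61 (p = 3e-05), r = 0.55 without the 2 kidneys farthest from the median of *Cyp2a4* and an adjusted p of 0.000675. The difference from the liver correlation given above was not tested. The slope of *Cyp2a5* on *Cyp2a4* was 0.83 ± 0.16 (limma-voom q = 0.0187), and without the 2 farthest kidneys it was 0.73 and not called (q = 0.16). The pair shares 36.5% of the *Cyp2a4* windows of 50 bases, and the part of this shared sequence in the correlation was not tested. With *Cyp2a4* 3 of 11208 genes were called (0.0268%): *Cyp2a5*, *Vmn1r184* and 1 gene with a negative slope. *Vmn1r184*, a vomeronasal receptor gene at chr7:27051850-27052794 between *Cyp2b9* and *Cyp2a4*, ranged from 0 over 3.64 TPM to 68.1 TPM (CC045) in kidney. It rose with *Cyp2a4* by 1.46 ± 0.14 (q = 1.2e-09), with r = 0.70 (permutation p = 1e-05), rho = 0.62 (p = 1e-05) and r = 0.66 without the 2 farthest kidneys. The kidneys of CC045, CC038 (52.2 TPM) and CC007 (48.8 TPM) stood apart from the next at 14.4 TPM (CC042). They were also the 3 highest in *Cyp2a4* and in *Cyp2b9*, and leaving out 2 kidneys does not remove all 3. *Vmn1r184* was picked for its likeness to *Cyp2a4* in these kidneys, so the permutation p-values are no separate test. *Vmn1r184* was called under each alternative tried. In liver and lung its median was 0. *Tmem79* (q = 0.403) and *Far1os* (q = 0.712), the next by likeness, were not called. With *Cyp2a5* no gene was called in kidney (0%, 0 of 11208 by limma-voom), with 533 at an unadjusted p under 0.05 and 16 called by edgeR's quasi-likelihood test. Its nearest genes in rank were *Coq10b* (rho = 0.57, q = 0.384), *Fam149a* (rho = 0.54, q = 0.632) and *Sash1* (rho = -0.50, q = 0.632).

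**Figure D5:**
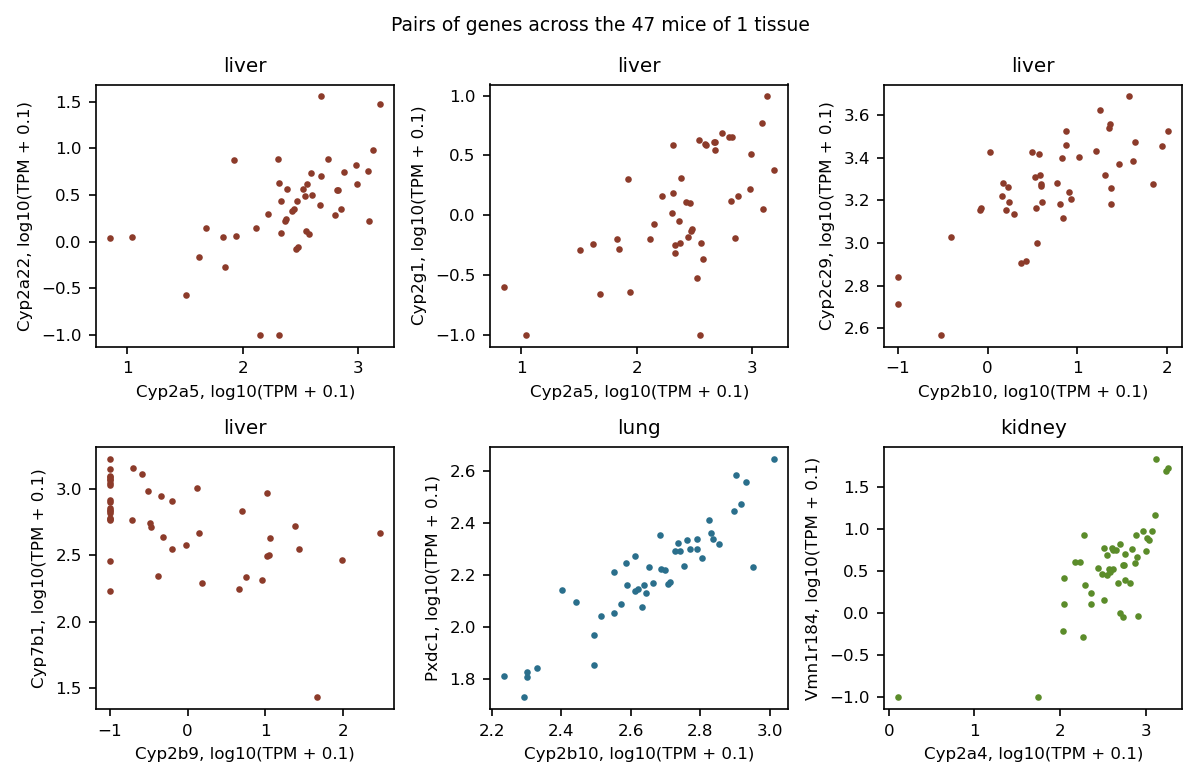
Pairs of genes across the 47 mice, as log10(TPM + 0.1), in liver (*Cyp2a5* with *Cyp2a22* and *Cyp2g1*, *Cyp2b10* with *Cyp2c29*, *Cyp2b9* with *Cyp7b1*), lung (*Cyp2b10* with *Pxdc1*) and kidney (*Cyp2a4* with *Vmn1r184*); each point is a mouse. The points fall only for *Cyp2b9* with *Cyp7b1* (rho = -0.57) and rise in the other panels, with rho between 0.59 and 0.80.

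The P450 genes beside the members in the cluster had tissue patterns of their own. *Cyp2f2* had a median of 1320 TPM in liver, 2361 TPM in lung and 4.85 TPM in kidney, and in the TMM-scaled fit it was higher in liver than in lung by 0.66 ± 0.08 on the log2 scale, under the 2-fold threshold and opposite in direction to the TPM medians. *Cyp2s1* was highest in lung (median 95.2 TPM, against 0.400 TPM in liver and 10.5 TPM in kidney), as *Cyp2b10* was. *Cyp2g1* (1.03, 1.43 and 0.640 TPM in liver, lung and kidney) and *Cyp2t4* (0.2, 2.09 and 0.600 TPM) were low, and *Cyp2b23* had a median of 0 in each tissue, with 13.6 TPM in the lung of CC007.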

How the data were processed

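RNA of liver, lung and kidney from 47 male CC mice was sequenced by the authors as single-end reads of 50 bases after ribosomal depletion. Per the labels and methods, reads were aligned with STAR to strain-specific pseudo-genomes and quantified with RSEM. The deposited files hold expected counts, TPM and FPKM per gene. Expected counts were rounded to whole numbers here, which changed 25 values. Each library was grouped by its labelled tissue, and each mouse gave all 3 tissues of its strain. Strain was therefore a block in the tissue fit: same-mouse libraries deviated together (median r 0.166, 0.173 and 0.211 for the 3 tissue pairs, against -0.00482 to -0.00603 for other mice), with the lowest same-mouse r at -0.0306. The methods of the study used sequencing batch as a covariate, but the labels assign no library to a batch, so no within-batch value was possible and batch is in no fit, slope or correlation here.

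Tissues were compared with limma 3.58.1 (voom) and edgeR 4.0.16 (TMM) in R 4.3.3, at q of at most 0.1 and 2-fold. Slopes within a tissue used rank inverse normal TMM-scaled TPM. Correlations used 100000 permutations (two-sided, scipy 1.17.1), of 41 named pairs, 27 pairs of members and 16 pairs with markers. DESeq2 1.42.0, edgeR's quasi-likelihood test, FPKM, other scalings and left-out strains were alternatives. Self-tests on simulated counts were run. Named genes were the 3 with the highest absolute rho to a member and up to 3 called genes of each list, and a rho printed without a p only ranks this likeness. The members and lists were chosen with earlier results of these data known. The *Cyp2b9* fit in liver, the lung and kidney fits, the correlations with marker genes and the fits without CC010, CC036 and CC039 (the lung with the most *Alb* and the shallowest livers) were added after the values were seen. Totals of 1738046 to 42158454 counts set the precision, and 3 counts was the floor for a resolved value. Promoters came from RefSeq (GRCm38.p6), gene positions and transcripts from NCBIM37. Single genes that the rule named but that are missing from the text are not reported here.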

Additional observations from a re-analysis of the deposited data

How the results depend on the processing

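Of 132 alternative values of member fold changes 127 kept their direction and call. Of 33 counts of members called 32 stayed within 1.5 times. The number of neighbours in the order that differed stayed within 1.5 times in 6 of 6. The order itself moved when mean TPM was used. *Cyp2a4* (mean 55.2 TPM) then came before *Cyp2b10* (14.4 TPM) in liver, and *Cyp2b13* (2.83 TPM) before *Cyp2b19* (2.19 TPM) in lung. On FPKM, *Cyp2a12* and *Cyp2b13* no longer differed in lung (paired permutation test, adjusted p = 0.255). *Cyp2a5* between liver and kidney was no longer called on total counts (0.95), log2(TPM + 1) (0.92) or log2(TPM + 0.1) (0.93), which left 3 members called there in place of 4. Without a fold threshold, *Cyp2a12* (0.35) and *Cyp2a5* (-0.74) were called between lung and kidney, which made 4 members. Leaving out the replicate block changed no call of a member, and moved *Cyp2a4* between liver and lung from 5.44 to 3.68. Total counts moved the median of all genes to -1.43, -0.954 and 0.461 for liver against lung, liver against kidney and lung against kidney (TMM -0.055, -0.0034 and 0.039), and of the genes called between liver and lung 1186 of 8651 were higher in liver, against 2901 of 6664 with TMM. The count over all genes was 12142 between liver and lung without the low-count filter and 11343 without the fold threshold. Between liver and kidney the main 4412 became 6655 on log2(TPM + 0.1), 6775 on total counts and 10665 without the fold threshold. Between lung and kidney 5591 became 11016 without it.

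Counts of genes that vary with a member moved more, and 45 of 80 stayed within 1.5 times. With edgeR's quasi-likelihood test the counts were 5 for kidney *Cyp2a4* (main 3), 16 for kidney *Cyp2a5* (0), and in liver 16 for *Cyp2a12* (10), 38 for *Cyp2a22* (4), 13 for *Cyp2a4* (1), 26 for *Cyp2b10* (2) and 108 for *Cyp2b9* (25). With all genes of any count they were 5 for kidney *Cyp2a4*, 2 for liver *Cyp2a22*, 0 for liver *Cyp2a4*, 3713 for liver *Cyp2b10* and 529 for lung *Cyp2b10* (851). With log2 CPM as the covariate they were 8 for kidney *Cyp2a4*, 41, 4, 5 and 95 for liver *Cyp2a12*, *Cyp2a4*, *Cyp2a5* (27) and *Cyp2b9*, and 27 for lung *Cyp2a5* (61). On log2(TPM + 1) they were 2, 0, 12, 1 and 2 for liver *Cyp2a22*, *Cyp2a4*, *Cyp2a5*, *Cyp2b10* and *Cyp2b9*, and 14 and 43 for lung *Cyp2a5* and *Cyp2b10*. Library size as a covariate left 1 for liver *Cyp2b10*. Without the 2 strains farthest from the median they were 6 for kidney *Cyp2a5*, 3, 0, 55, 1 and 13 for liver *Cyp2a12*, *Cyp2a4*, *Cyp2a5*, *Cyp2b10* and *Cyp2b9*, and 5 for lung *Cyp2a5*. Without CC010, CC036 and CC039, chosen after seeing the data, liver *Cyp2a22* and *Cyp2a4* had 0. Of 272 alternative values of the 34 called slopes, 227 kept their call, 45 did not and none reversed, and 10 slopes kept it under all 8 alternatives. Between tissues, *Cyp2b10* in liver and lung had r = 0.11 on TPM without TMM and 0.22 without the 2 farthest strains, *Cyp2a4* in liver and kidney turned to r = -0.0057 without 2 strains, and *Cyp2a5* in lung and kidney had r = 0.29 on TPM without TMM. The cause was not tested for any of these. Depth limits the members under 3 counts, and 1 mouse a strain limits every statement on a strain.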
